A study of Mus musculus with 20 samples.

Results

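Kidneys of old mice that lack telomerase were compared with kidneys of old mice that have it. The first group, G3 Tert-/- old, held 5 male mice of the genotype Tert-/- in generation 3 (G3) at an age of 47 weeks. The second, Tert+/+ old, held 5 male Tert+/+ mice of the same age. They are 10 of the 20 samples of the study. The other 10 are 5 Tert+/+ and 5 G3 Tert-/- males of 7 weeks, used here to show the level of a gene before ageing and to ask whether its genotype difference depends on age. All mice came from 1 specific-pathogen-free facility. No treatment other than genotype and age is labelled, and the loss of Tert is not tied to a promoter or cell type, so it is taken as present in the whole animal. Strain background, litters and telomere length are not given in the sources used here. Each library was taken as 1 mouse, and p-values measure the spread between these mice only. The genes described are all those whose normalized read count was 10 or more in at least 5 of the 20 libraries, which held for 14630 of the 19940 genes in the table. 205 genes lay just inside that limit, with 5 such libraries and a median mean of 7.60, and 256 lay just outside, with 4 such libraries and a median mean of 7.09.

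Telomerase adds DNA repeats to chromosome ends, and Tert is its reverse transcriptase. In mice bred without it the repeats shorten from one generation to the next, and very short ends are sensed as DNA damage and can engage the transcription factor p53. Much of the RNA of a whole kidney comes from the proximal tubule, whose cells take up organic anions, amino acids and fatty acids from filtrate and blood. Many proximal tubule genes of the mouse are expressed at different levels in males and females, under the control of androgens among other signals.

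Old libraries held 7161690 to 8156022 reads assigned to genes, with 18628 to 19137 genes above 0. Values below are normalized counts from reads at the 3′ ends of transcripts, so they compare mice for 1 gene and not genes with each other. Means are given ± SD over 5 mice, folds are ratios of group means, and log2 fold changes, G3 Tert-/- over Tert+/+ on the scale of log2(normalized count + 1), carry a standard error (SE). A value of 0 allows up to 3 reads, which is 2.92 to 3.38 normalized counts in these libraries and covers counting error only. All 14 listed proximal tubule markers, all 7 of the thick ascending limb and all 9 of podocytes passed the limit. So did all 9 adipocyte markers, 9 of 10 of urothelium, 12 of 18 of hepatocytes and 2 of 8 of the adrenal cortex. Passing the limit is therefore a weak check of the tissue label. Tert+/+ old replicate 4 stood apart. On the first principal component of the 10 old libraries, which held 31.4% of their variance, it scored 68.6 against -34.8 to 11.9 in the others. Its summed hepatocyte markers came to 4591 against 1717 to 1942 in the other old Tert+/+ kidneys and 1595 to 2401 in old G3 kidneys. The second component (14.1%) placed all 5 Tert+/+ libraries at 9.51 to 21.9 and all 5 G3 libraries at -40.1 to -2.01. Gene list medians that change sign or move over 1.5 times without replicate 4 are given with and without it. In whole tissue, fewer cells of a type and less RNA per cell cannot be told apart.

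Tert itself (chr13:73626911-73649843, plus strand) was counted at a few reads per library. Its normalized count was 7.25, 7.88, 11.7, 16.9 and 15.6 in Tert+/+ replicates 1 to 5 and 5.28, 8.19, 8.31, 5.11 and 8.08 in G3 replicates 1 to 5. The groups overlapped, with Tert+/+ replicates 1 and 2 below the 3 highest G3 mice. Means were 11.9 ± 4.37 and 6.99 ± 1.65 (SD, n = 5 mice each), and an exact two-sided permutation test over mice gave p = 0.0794, where 0.00794 is the smallest value that 252 splits allow. The 3′ end that these reads cover may not be in the deleted stretch, so the level is a weak check of the genotype labels.

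Few transcripts differed between the genotypes in old kidneys past the test. With limma on log2(normalized count + 1) and Benjamini-Hochberg adjustment over all 14630 genes, 14 genes had an adjusted p under 0.05, or 0.0957% of those tested. 12 of them (0.082%) were lower in old G3 Tert-/- kidneys: Slco1a1, Lipo3, Cntnap5a, Sec14l3, Nudt19, Gm48281, Acsm3, Gm6300, Pzp, Acsm2, Hsd17b11 and Papss1. The 2 that were higher (0.0137%) were Gm47283 and Scd2. For 13 of the 14, no G3 mouse overlapped with a Tert+/+ mouse, which held for 338 genes in all (2.31%), 128 of them higher (0.875%) and 210 lower (1.44%). An unadjusted p under 0.05 was found for 962 genes (6.58%), 450 higher (3.08%) and 512 lower (3.5%). The fitted log2 fold change passed 1 in size for 128 genes (0.875%), 72 higher (0.492%) and 56 lower (0.383%). Over all tested genes the median log2 fold change was 0.010, and 52.1% were above 0.

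**Figure D1:**
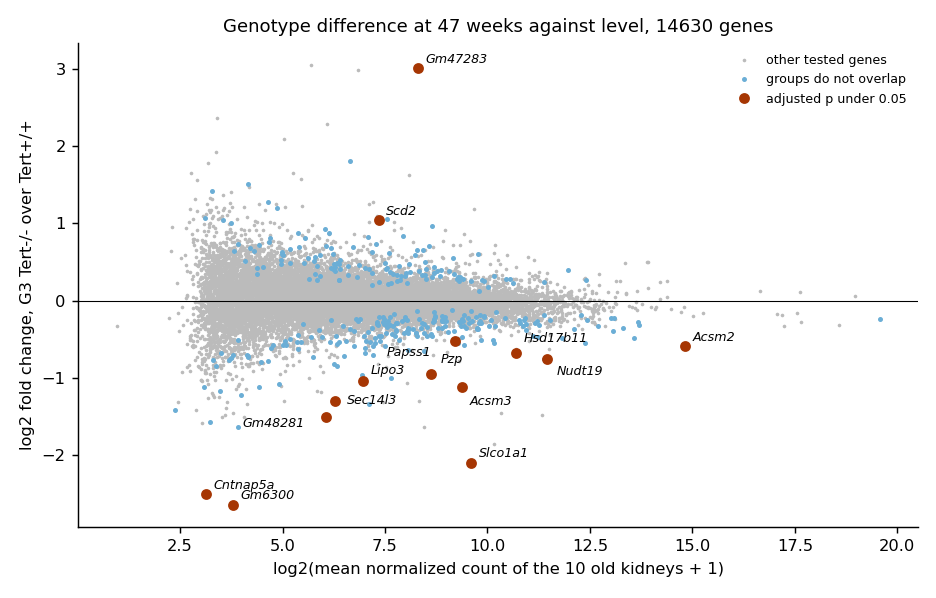
Log2 fold change of old G3 Tert-/- over old Tert+/+ kidneys (vertical axis) against the log2 mean normalized count of the 10 old kidneys plus 1 (horizontal axis), with 1 point per tested gene. Large points are the 14 genes with an adjusted p under 0.05 by limma, 12 below and 2 above the line of no difference; small blue points are genes whose groups do not overlap.

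The number of genes that pass rests on single mice. Refits that left out 1 old library called 2 to 19 genes. The count fell to 4 without Tert+/+ replicate 1, 7 without Tert+/+ replicate 5, 8 without G3 replicate 1, and 2 without G3 replicate 2 or G3 replicate 4. Slco1a1 and Lipo3 passed in all 10 such refits, Nudt19 and Gm47283 in 8, Cntnap5a and Sec14l3 in 7, Gm48281 in 6, Acsm3 and Scd2 in 5, Pzp in 4, Acsm2 and Hsd17b11 in 3, Gm6300 in 2 and Papss1 in 0. A fit of the 10 old libraries alone called 6 genes, 2 higher and 4 lower. On whole reads recovered from the table, edgeR's quasi-likelihood test called 15 genes (0.103%), 4 higher (0.0273%) and 11 lower (0.0752%), 13 of them among the 14, and DESeq2 called 50 (0.342%), 18 higher (0.123%) and 32 lower (0.219%), among them all 14. Below, a gene is said to be called, to rise or to fall by limma unless another tool is named.

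The sequences just upstream of the genes that changed are shown for the 4 of them in which a hormone receptor half-site was found. RefSeq gives a promoter, 250 bases before to 50 after a transcript start on GRCm38.p6, for 9 of the 14 genes. Each was searched on both strands for AGAACA (on the other strand, TGTTCT), the half-site that androgen and glucocorticoid receptors share, and for AGGTCA (on the other strand, TGACCT), the half-site of many other nuclear receptors. The CCAAT box (CCAAT) and the TATA box (TATAAA) were searched in the same way and are not marked. The 2 half-sites do not overlap each other in these windows. Capitals mark the matches.

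Slco1a1 (chr6:141946913-141947212, minus strand): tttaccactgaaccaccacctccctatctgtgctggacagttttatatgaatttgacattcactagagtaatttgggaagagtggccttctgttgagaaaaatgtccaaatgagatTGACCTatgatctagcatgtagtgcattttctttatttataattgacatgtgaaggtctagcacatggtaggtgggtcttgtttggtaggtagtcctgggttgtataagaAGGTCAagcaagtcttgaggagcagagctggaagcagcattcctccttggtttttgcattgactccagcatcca

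Sec14l3 (chr11:4064603-4064902, plus strand): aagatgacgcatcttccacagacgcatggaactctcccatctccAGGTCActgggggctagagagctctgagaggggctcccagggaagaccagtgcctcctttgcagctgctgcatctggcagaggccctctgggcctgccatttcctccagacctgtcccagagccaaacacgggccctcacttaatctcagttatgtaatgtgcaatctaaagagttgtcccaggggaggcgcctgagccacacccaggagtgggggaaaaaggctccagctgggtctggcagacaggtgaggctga

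Pzp (chr6:128526671-128526970, minus strand): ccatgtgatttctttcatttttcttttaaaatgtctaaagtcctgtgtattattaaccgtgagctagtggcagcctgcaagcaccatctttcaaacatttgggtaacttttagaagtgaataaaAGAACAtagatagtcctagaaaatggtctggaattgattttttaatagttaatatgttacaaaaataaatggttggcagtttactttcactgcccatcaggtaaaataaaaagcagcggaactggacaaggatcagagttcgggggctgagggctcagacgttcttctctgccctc

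Acsm2 (chr7:119554090-119554389, plus strand): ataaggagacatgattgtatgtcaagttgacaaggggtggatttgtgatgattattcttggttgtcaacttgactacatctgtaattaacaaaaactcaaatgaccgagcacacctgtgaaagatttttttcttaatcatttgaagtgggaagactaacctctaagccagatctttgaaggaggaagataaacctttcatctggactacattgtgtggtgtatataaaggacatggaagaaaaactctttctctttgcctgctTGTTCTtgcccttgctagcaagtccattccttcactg

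Slco1a1 held TGACCT 134 bases before its start and AGGTCA 24 bases before it. Sec14l3 held AGGTCA 206 bases before its start. Pzp held AGAACA 126 bases before its start, and the first of 2 windows of Acsm2 held TGTTCT 14 bases after it. The windows of Lipo3, Nudt19, Acsm3, Hsd17b11 and Papss1 held neither. AGAACA or its reverse was in 15.4% of the 10391 tested genes with a promoter and AGGTCA or its reverse in 15.1%, counting a gene once if any of its windows held a match, and each was in 2 of the 9 genes. Of all 32851 promoters, 6233 held the first and 5340 the second. CCAAT was found for 4 of the 9 (Acsm3, Hsd17b11, Lipo3 and Papss1) beside 42.4% of tested genes (37.4% of all promoters), and TATAAA for 3 (Acsm2, Lipo3 and Slco1a1) beside 9.24% (13.6%). A match is a run of letters and not a site shown to be bound.

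Slco1a1 (chr6:141907282-141946962, minus strand) encodes an organic anion transporter of the proximal tubule that androgens induce. Its normalized count was 1437, 1193, 878, 1277 and 1497 in the old Tert+/+ mice and 215, 217, 487, 241 and 359 in the old G3 mice. The highest G3 mouse, replicate 3, lay below the lowest Tert+/+ mouse, which was also replicate 3. The mean was 4.13-fold lower in G3 kidneys (304 ± 118 against 1256 ± 244), a log2 fold change of -2.10 (SE 0.23) with an adjusted p of 5.73e-05 by limma. At 7 weeks the genotypes were close together, at 1764 ± 514 (Tert+/+) and 1724 ± 378 (G3).

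3 called genes act on acyl-CoA, the activated form of fatty and other organic acids. Acsm2 and Acsm3 are mitochondrial medium-chain acyl-CoA synthetases, and Nudt19 is a peroxisomal enzyme that cleaves coenzyme A. Acsm3 (chr7:119760923-119787513, plus strand) stood at 932, 957, 686, 964 and 946 in Tert+/+ and 311, 294, 692, 406 and 452 in G3 mice. It is the single called gene whose groups touched, since Tert+/+ replicate 3 was slightly below G3 replicate 3, and the other mice of the 2 groups were far apart. The mean was 2.08-fold lower in G3 kidneys (log2 fold change -1.12, SE 0.19, limma adjusted p = 0.0145). Young kidneys averaged 1916 in Tert+/+ and 1840.2 in G3 mice.

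Nudt19 (chr7:35547185-35556304, minus strand) had counts of 3333, 3809.7, 3551, 3717 and 3244 in Tert+/+ and 2263, 1723, 2008, 2081 and 2480.4 in G3 kidneys. The lowest Tert+/+ mouse was well above the highest G3 mouse, and the spread within either group was small. The difference came to 1.67-fold (log2 fold change -0.75, SE 0.13, limma adjusted p = 0.0125). Acsm2 (chr7:119554340-119600690, plus strand), among the abundant kidney transcripts, was at 40490.0, 31122, 31630.0, 35716 and 35333 in Tert+/+ and 24454, 22521, 24483, 21464 and 22603 in G3 mice. The G3 mice lay close together, all below the Tert+/+ mice. It was 1.51-fold lower (log2 fold change -0.59, SE 0.11, limma adjusted p = 0.0238). Acsm2 did not pass without Tert+/+ replicate 4 (adjusted p = 0.0807), where its log2 fold change was -0.58.

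Hsd17b11 (chr5:103989762-104021919, minus strand), a lipid-droplet dehydrogenase that oxidises steroids, read 2107, 1819, 1809, 2526 and 1977 in the 5 Tert+/+ and 1119, 1199, 1564, 1102 and 1446 in the 5 G3 kidneys. Tert+/+ replicate 4 was the highest and G3 replicate 3 the closest to the Tert+/+ range. The mean was 1.59-fold lower in G3 mice (log2 fold change -0.67, SE 0.13, limma adjusted p = 0.0381), and without Tert+/+ replicate 4 the adjusted p was 0.139. Papss1 (chr3:131564768-131643671, plus strand) makes the sulfate donor used to conjugate steroids, drugs and glycans. Its counts were 665, 657, 707, 851 and 611 in Tert+/+ and 455, 473, 492, 503 and 482 in G3 kidneys. The G3 mice varied little (481 ± 18.5, SD, n = 5), and every one of them was below every Tert+/+ mouse. It was 1.45-fold lower (log2 fold change -0.53, SE 0.10, limma adjusted p = 0.0386), and its adjusted p without Tert+/+ replicate 4 was 0.139.

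Lipids and their carriers account for 3 more genes. Lipo3 (chr19:33555160-33761951, minus strand) belongs to a lipase family of close copies that lie next to each other, so its reads may be split among them in counting. It stood at 184, 152, 137, 180.2 and 179 in Tert+/+ and 89.8, 74.7, 103, 84.8 and 56.6 in G3 kidneys, with no overlap. The mean was 2.04-fold lower (log2 fold change -1.04, SE 0.15, limma adjusted p = 0.00265). Between 7 and 47 weeks its group mean went from 134 to 167 in Tert+/+ mice and from 119 to 81.7 in G3 mice, opposite directions for the 2 genotypes. The interaction of genotype and age did not pass for this gene (log2 difference -0.86, SE 0.21, limma adjusted p = 0.507).

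Sec14l3 (chr11:4064841-4077736, plus strand), a lipid-binding protein of the SEC14 family, was at 126, 99.5, 98.3, 110.4 and 105 in Tert+/+ and 32.7, 40.9, 52.98, 35.7 and 58.6 in G3 mice. Even the highest G3 mouse, replicate 5, had well under the lowest Tert+/+ count. The mean was 2.44-fold lower (log2 fold change -1.30, SE 0.22, limma adjusted p = 0.0125). Scd2 (chr19:44293674-44306864, plus strand), a stearoyl-CoA desaturase that makes monounsaturated fatty acids, moved the other way. Counts were 109, 110.3, 78.9, 109 and 118 in Tert+/+ and 176, 266, 199, 201 and 244 in G3 kidneys, with every G3 mouse above every Tert+/+ mouse. It rose 2.07-fold (log2 fold change 1.04, SE 0.18, limma adjusted p = 0.0172), and its group means at 7 weeks, 165 in Tert+/+ and 185 in G3 mice, lay between those of the old groups.

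Pzp (chr6:128483567-128526720, minus strand) encodes a secreted protease inhibitor of the alpha-2-macroglobulin family. It was at 583, 619.7, 370.0, 449 and 584 in Tert+/+ and 263, 316, 305, 174 and 292 in G3 kidneys. Tert+/+ replicate 3 came nearest to the G3 range and G3 replicate 4 was the lowest mouse. The mean was 1.93-fold lower (log2 fold change -0.95, SE 0.18, limma adjusted p = 0.0238). Pzp is made in large amounts by the liver, and hepatocyte markers summed to 1595 to 2401 in old G3 kidneys and to 1717 to 1942 in the Tert+/+ kidneys other than replicate 4. Replicate 4, with a hepatocyte marker sum of 4591, had the second lowest Pzp count of its group, and without it the log2 fold change was -0.998 (limma adjusted p = 0.0343). Whether liver tissue has a part in the Pzp difference was not tested.

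The remaining 4 called genes are an adhesion gene and 3 known by a Gm number only. Cntnap5a (chr1:115684756-116587323, plus strand), a cell adhesion protein of the neurexin family, had counts of 16.6, 11.8, 5.84, 21.4 and 13.4 in Tert+/+ and 0, 1.02, 4.16, 1.02 and 3.03 in G3 mice. All 5 G3 values are at or near what 3 reads amount to, so the fitted log2 fold change of -2.50 (SE 0.41, limma adjusted p = 0.0125) depends on the added 1 and is no measure of size. Gm6300 (chr3:14363117-14377587, plus strand), annotated as an unprocessed pseudogene, was at 24.9, 23.6, 20.4, 12.4 and 28.9 in Tert+/+ and 3.17, 0, 2.08, 3.06 and 10.1 in G3 mice, with G3 replicate 5 alone clearly above 3 reads. edgeR did not call it (adjusted p = 0.168, against 0.0238 by limma). In young kidneys Gm6300 averaged 88.9 in Tert+/+ and 144 in G3 mice, above either old group.

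Gm48281 (chr10:10100420-10110099, minus strand) is annotated as a long intergenic non-coding RNA. It read 117, 61.1, 67.2, 111 and 127 in Tert+/+ and 47.5, 24.6, 45.7, 17.4 and 36.4 in G3 kidneys, without overlap and 2.82-fold lower on average (log2 fold change -1.50, SE 0.25, limma adjusted p = 0.0125). Gm47283 (chrY:90784738-90816464, plus strand) lies near the end of the Y chromosome and is annotated as protein-coding. It rose from 111, 59.1, 29.2, 42.8 and 75.7 in Tert+/+ to 189, 371, 567, 1239 and 457 in G3 mice. G3 replicate 4 was far above the other G3 mice, and replicate 1 of each group came closest to the other. The log2 fold change was 3.01 (SE 0.51, limma adjusted p = 0.0125). Young kidneys spread widely for Gm47283, at 349.6 ± 261 in Tert+/+ and 394 ± 162 in G3 mice, and reads of its copies may be assigned to it or lost. The 4 listed Y-linked genes, of which Gm47283 is not one, had a median log2 fold change of 0.019, and 0.0074 without Tert+/+ replicate 4. Whether they are a like comparison for a gene near the end of that chromosome was not tested.

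**Figure D2:**
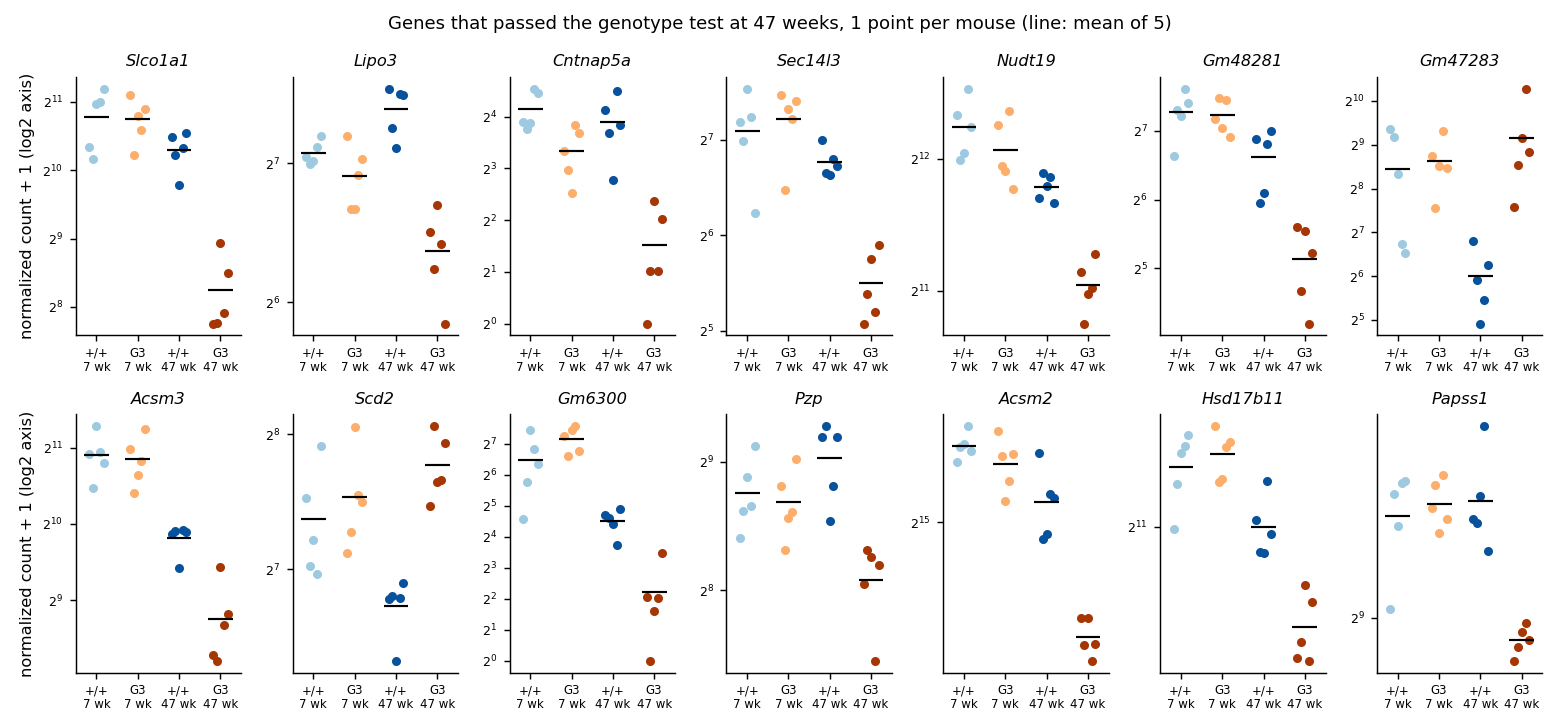
Normalized count plus 1 (log2 axis) of the 14 genes that passed the test in old kidneys, with 1 point per mouse in each of the 4 groups and a line at the mean of 5 mice. At 47 weeks the G3 points lie below the Tert+/+ points for 11 genes, above them for Gm47283 and Scd2, and touch them for Acsm3, while at 7 weeks the genotypes overlap in all 14.

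The same mouse was often the one nearest to the other genotype. Tert+/+ replicate 3 was the closest of its group to the G3 mice for 7 of the 14 genes, and G3 replicate 3 the closest of its group to the Tert+/+ mice for 6. Without G3 replicate 3 the number of called genes was 19, with 12 of the 14 among them. G3 replicate 4 was the farthest from Tert+/+ for 5 genes, and G3 replicates 1 and 2 for 4 each.

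The genotype difference of these genes was small in young kidneys. At 7 weeks no gene passed the adjusted test with limma (0.0% of 14630), although 1559 (10.7%) had an unadjusted p under 0.05. For 11 of the 14 genes the log2 fold change at 7 weeks lay between -0.18 (Lipo3) and 0.17 (Scd2). The exceptions were Cntnap5a at -0.84 (SE 0.41), Gm6300 at 0.94 (SE 0.49) and Gm47283 at 0.50 (SE 0.51). The difference between ages was tested directly as the 47-week genotype difference less the 7-week one. Slco1a1 alone passed, or 0.00684% of genes tested, with a log2 difference of -2.09 (SE 0.32) and a limma adjusted p of 0.0199. That call ended without Tert+/+ replicate 1, 2 or 5 or G3 replicate 1, 2 or 4, when each was left out alone, and with robust variance moderation (adjusted p = 0.0604). For the other 13 genes a difference between the ages was not shown, and their adjusted p for it ranged from 0.229 (Gm6300) to 0.774 (Cntnap5a).

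**Figure D3:**
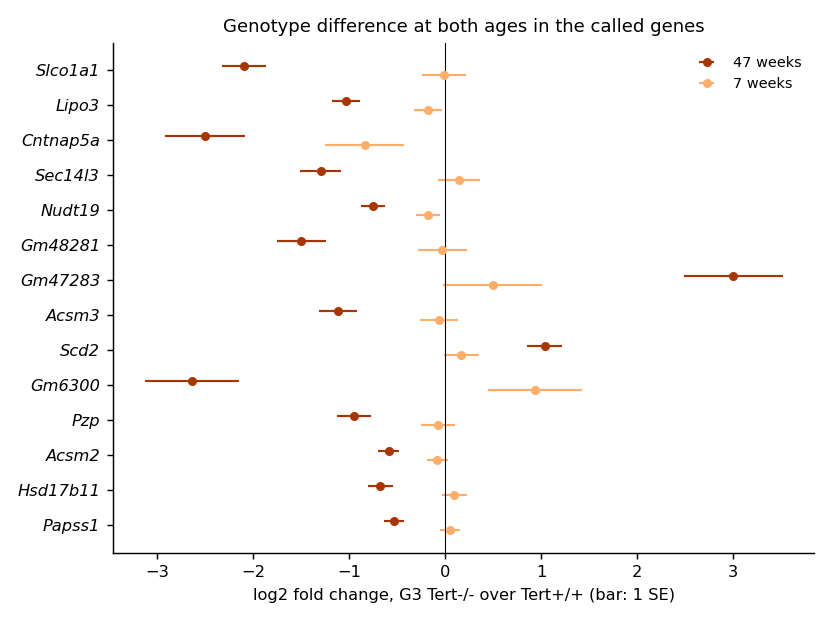
Log2 fold change of G3 Tert-/- over Tert+/+ kidneys at 47 weeks (dark) and 7 weeks (light) for the 14 called genes, with bars of 1 standard error. The 7-week points of 11 genes lie between -0.18 and 0.17, while the 47-week points run from -2.64 to 3.01.

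Just beyond the threshold stood 12 further named genes, taken by smallest p. None passed with limma, all 12 passed with DESeq2, and Slc7a12 and Rdh16f2 passed with edgeR too. Slc7a12 (chr3:14480697-14505830, plus strand), an amino acid transporter that female mouse kidneys express more strongly, was at 34.2, 86.7, 50.6, 18.02 and 46.7 in Tert+/+ and 148, 205, 114, 162 and 129 in G3 mice. Every G3 mouse was above every Tert+/+ mouse, 3.21-fold on average (log2 fold change 1.80, SE 0.38, adjusted p = 0.0729 by limma, 0.0136 by edgeR and 5.85e-05 by DESeq2). Young kidneys held 4.13 (Tert+/+) and 6.85 (G3) on average, below either old group. Rdh16f2 (chr10:127866474-127877317, plus strand), of the retinol dehydrogenase family, was at 191, 300.5, 323, 299.6 and 233 in Tert+/+ and 521, 574, 341, 614 and 606 in G3 mice. Its groups did not overlap either, though G3 replicate 3 sat just above the Tert+/+ range (log2 fold change 0.97, SE 0.20, adjusted p = 0.0722 by limma, 0.0440 by edgeR and 0.00127 by DESeq2).

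Among the rest of these 12, the genes with higher counts in G3 mice were Ppm1k, the phosphatase that activates branched-chain amino acid breakdown (139 to 166 in Tert+/+ against 204 to 257 in G3 mice, limma adjusted p = 0.0675), Abcc4 and L1cam. Abcc4, an efflux pump for organic anions, ranged from 224 to 283 in Tert+/+ and from 347 to 545 in G3 mice (adjusted p = 0.0905). L1cam, an adhesion molecule of the collecting duct and of nerves, ranged from 107 to 119 in Tert+/+ and from 145 to 237 in G3 mice (adjusted p = 0.0953). In none of the 3 did the groups overlap, and DESeq2 gave adjusted p of 0.00350 for Ppm1k, 0.00498 for Abcc4 and 0.00777 for L1cam.

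Lower in G3 mice, short of the threshold with limma and edgeR, were 7 genes, for which DESeq2 gave adjusted p from 0.00590 (Pde6a) to 0.0386 (Cyp4a12a). Vps8, a subunit of an endosomal tethering complex, had 143 to 219.6 in Tert+/+ and 80.3 to 140.2 in G3 mice (limma adjusted p = 0.0797). Kif20b, a kinesin of dividing cells, had 207 to 348 and 85.96 to 184 (adjusted p = 0.0905). Anks1b, a scaffold protein, had 15.8 to 32.1 and 3.06 to 10.4 (adjusted p = 0.0797). The groups of all 3 were separate, as were those of Pde6a, a phosphodiesterase subunit (log2 fold change -0.96, SE 0.21), and Tmtc4, a mannosyltransferase (log2 fold change -0.52, SE 0.12). Cyp4a12a (chr4:115299046-115332815, plus strand), a fatty acid hydroxylase with a near-identical neighbour, Cyp4a12b, that can share its reads, was at 2083, 1369, 986, 3180.2 and 1201 in Tert+/+ and 414, 367, 1020.1, 169 and 648 in G3 mice (limma adjusted p = 0.119). Its spread was wide in both groups, with Tert+/+ replicate 4 highest, and G3 replicate 3 exceeded Tert+/+ replicate 3. Rpp40, a subunit of ribonuclease P, overlapped between the groups, again through G3 replicate 3, with 77.1 in Tert+/+ and 42.2 in G3 kidneys on average (adjusted p = 0.127).

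Genes that male mouse kidneys express more than female ones were mostly lower. Of 22 tested members of this list, 20 had a log2 fold change below 0, beside 47.9% of all tested genes, and the median was -0.33 beside 0.010. 3 fell past the test with limma (Slco1a1, Acsm3 and Nudt19), beside 0.082% of all tested genes, and DESeq2 also called Cyp4a12a lower. By limma, 9 had an unadjusted p under 0.05 in that direction and 1 in the other, beside 3.5% and 3.08% of all tested genes. Per mouse, a list score was taken as the median over members of log2 values, each gene centred on all 20 libraries. It ran from -0.014 to 0.17 in Tert+/+ and from -0.37 to -0.061 in G3 kidneys, so the groups did not overlap. The list was chosen with earlier results of these data known and holds called genes, so this separation is no independent evidence. At 7 weeks the list median was -0.055.

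Members that did not pass over all genes with any of the 3 tools had values as follows. Odc1, the first enzyme of polyamine synthesis, was at 3577, 2860.0, 3355, 3412 and 3537 in Tert+/+ and 2659.8, 1447, 1996, 2163 and 1799 in G3 kidneys (limma adjusted p = 0.276). Gusb, the lysosomal beta-glucuronidase, was at 119, 146, 127, 119 and 122 and 99.3, 93.1, 71.7, 65.4 and 93.96 (adjusted p = 0.174). Both were without overlap between genotypes. Kap, an androgen-regulated protein among the most abundant transcripts of the male kidney, differed by -0.33 (SE 0.21) on the log2 scale, with overlapping groups (limma adjusted p = 0.823). The female-biased list did not mirror this: 9 of 17 members were above 0, with a median of 0.029 that became -0.14 without Tert+/+ replicate 4. The member that limma called, Acsm2, was lower in G3 mice, and edgeR and DESeq2 also called Slc7a12, which was higher. DESeq2 called Slc22a7 lower, an anion transporter at 140.2 to 271 in Tert+/+ and 35.9 to 121 in G3 kidneys (adjusted p = 0.167 by limma and 0.0328 by DESeq2).

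Metabolic and transport lists had medians from -0.12 (steroid metabolism) to 0.20 (cholesterol synthesis and uptake), beside 0.010 for all genes. Of all tested genes, 3.08% were higher and 3.5% lower at an unadjusted p under 0.05 by limma. The shares called higher and lower were 0.0137% and 0.082% by limma, 0.0273% and 0.0752% by edgeR, and 0.123% and 0.219% by DESeq2. Some genes stand in more than 1 list. Acyl-CoA synthetases, thioesterases and glycine conjugation enzymes had 19 of 29 members below 0 (median -0.11), with Acsm2, Acsm3 and Nudt19 the 3 that fell and none that rose. In this list 3 members were higher and 7 lower at an unadjusted p under 0.05. The groups did not overlap for 5 members, all lower, beside 1.44% of all tested genes. Steroid metabolism had 14 of 24 below 0 (median -0.12), with Hsd17b11 the 1 that fell, and 2 higher and 6 lower at an unadjusted p under 0.05. Hsd11b1, which regenerates active glucocorticoid, was at 348 ± 73.5 in Tert+/+ and 220.2 ± 28.99 in G3 kidneys (limma adjusted p = 0.392), and Akr1c14, a ketosteroid reductase, at 163 ± 43.3 and 106 ± 18.7 (adjusted p = 0.558). Without Tert+/+ replicate 4 the steroid median was -0.20.

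Organic anion and cation transporters had 22 of 31 below 0 (median -0.080, and -0.17 without Tert+/+ replicate 4). Slco1a1 was the 1 called by limma and by edgeR, and DESeq2 also called Slc22a7 lower and Abcc4 higher. Amino acid transporters had 14 of 23 above 0 (median 0.11, and 0.042 without Tert+/+ replicate 4), with an unadjusted p under 0.05 for 2 higher and 1 lower. Limma called none, and edgeR and DESeq2 called Slc7a12 higher. Slc6a19, the main neutral amino acid transporter of the brush border, was at 1109, 728, 705, 592 and 825 in Tert+/+ and 708, 466, 538, 474 and 222 in G3 mice, which overlapped (limma adjusted p = 0.289), and it lies within 2 Mb of Tert on chromosome 13. At 7 weeks its log2 fold change was 0.42 (SE 0.21).

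Conjugation by glutathione, glucuronide and sulfate had 21 of 32 above 0 (median 0.10, or 0.071 without Tert+/+ replicate 4), with Papss1 the 1 that fell. At an unadjusted p under 0.05 by limma, 6 members were higher and 3 lower. DESeq2 also called Gsta2 higher. Gsta2, a glutathione transferase, was at 739, 896, 1146, 698 and 839 in Tert+/+ and 2263, 1566, 1069.9, 1504 and 949.7 in G3 mice, with overlap and with G3 replicate 1 highest (adjusted p = 0.209 by limma and 0.0327 by DESeq2). Cytochrome P450 enzymes had 12 of 26 above 0 (median -0.059, and -0.091 without Tert+/+ replicate 4), with an unadjusted p under 0.05 for 3 higher and 2 lower. Limma and edgeR called none, and DESeq2 called Cyp2c23 higher and Cyp4a12a lower. In that list Cyp2c23, an arachidonate epoxygenase, was at 225 to 312 in Tert+/+ and 329.9 to 646 in G3 kidneys without overlap (adjusted p = 0.178 by limma and 0.0171 by DESeq2). Cyp2d12, of the Cyp2d family, was at 464 to 985 and 1001 to 1067 (adjusted p = 0.582), with a log2 fold change of -0.73 at 7 weeks.

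Fatty acid synthesis and desaturation had 15 of 24 above 0 (median 0.12), with Scd2 the 1 that rose. Srebf1, the transcription factor that drives this pathway, was at 23.8, 26.6, 15.6, 3.38 and 23.4 in Tert+/+ and 62.3, 44.00, 18.7, 27.6 and 23.2 in G3 mice (limma adjusted p = 0.746). G3 replicates 1 and 2 were the highest mice and Tert+/+ replicate 4 the lowest, without which its log2 fold change was 0.52 instead of 1.001. Cholesterol synthesis and uptake had 15 of 23 above 0 (median 0.20, beside -0.038 at 7 weeks). Limma, edgeR and DESeq2 called none, with an unadjusted p under 0.05 for 5 higher and 1 lower by limma. Msmo1, a sterol oxidase, was at 202 ± 23.5 in Tert+/+ and 267 ± 26.1 in G3 kidneys (adjusted p = 0.556).

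Fat-burning and degradative organelles leaned slightly lower. Mitochondrial fatty acid oxidation had 16 of 25 members below 0 (median -0.057, and -0.091 without Tert+/+ replicate 4) and peroxisomal enzymes and peroxins 24 of 39 (median -0.093). No member of either list was called by limma, edgeR or DESeq2. An unadjusted p under 0.05 by limma was found for 0 higher and 3 lower members of the first list and 1 higher and 4 lower of the second. Over all tested genes these shares were 3.08% higher and 3.5% lower. Cpt1a, which admits fatty acids to mitochondria, was at 1425 ± 94.8 in Tert+/+ and 1167 ± 102 in G3 kidneys (limma adjusted p = 0.556), and Eci2, a peroxisomal enoyl-CoA isomerase, at 529 ± 53.4 and 409.8 ± 50.7 (adjusted p = 0.534). Lysosomal hydrolases had 22 of 38 below 0 (median -0.070), with an unadjusted p under 0.05 for 2 higher and 8 lower. Limma and edgeR called none, and DESeq2 called Glb1 lower, as it did 0.219% of the genes it tested. Within that list beta-galactosidase, Glb1, was at 635 to 678 in Tert+/+ and 471 to 538 in G3 mice (adjusted p = 0.142 by limma and 0.0128 by DESeq2), without overlap.

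Targets of p53, the transcription factor engaged by damaged telomeres, were mostly higher by small amounts. 20 of 27 tested members were above 0, with a median of 0.18, and none was called by limma or edgeR, while DESeq2 called Cdkn1a. By limma, 4 had an unadjusted p under 0.05 with higher values and none with lower, beside 3.08% and 3.5% of all tested genes. The list also holds Trp53, the gene of p53 itself, which is 1 of these 4. The list score ran from -0.057 to 0.028 in Tert+/+ and from 0.077 to 0.21 in G3 kidneys without overlap, and the median at 7 weeks was -0.038. This list too was chosen with earlier results of these data known, so the separation is no independent evidence. Cdkn1a (chr17:29090976-29100727, plus strand), the cell-cycle inhibitor p21, was at 83.9, 81.8, 166, 170.1 and 120.2 in Tert+/+ and 225, 229, 239, 296 and 255 in G3 mice. Each G3 mouse was above each Tert+/+ mouse, and the mean was 1.998-fold as high (log2 fold change 1.06, SE 0.26, adjusted p = 0.167 by limma and 0.0327 by DESeq2). Its limma adjusted p was 0.139 without Tert+/+ old replicate 4, and it passed in 0 of the refits that left out 1 old mouse. Without both libraries that stand apart, Tert+/+ old replicate 4 and Tert+/+ young replicate 1, its limma adjusted p was 0.0207. The same run gave limma adjusted p of 0.0235 for Acsm2, 0.0235 for Hsd17b11 and 0.0188 for Papss1.

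Trp53 itself, already counted in that list, was at 30.1, 25.6, 20.4, 31.5 and 27.8 in Tert+/+ and 44.4, 46.05, 42.6, 32.7 and 52.5 in G3 kidneys, also without overlap (limma adjusted p = 0.436). Aen, a p53-induced nuclease, was at 196 ± 47.4 and 254 ± 36.1 (adjusted p = 0.580). DNA damage sensing and repair genes had 22 of 45 above 0, with a median of -0.0031 that became 0.022 without Tert+/+ replicate 4. Telomerase and shelterin components, which bind and maintain chromosome ends, had 10 of 21 above 0 (median -0.052, and 0.056 without Tert+/+ replicate 4). The member with the smallest p was Nhp2, a protein of the telomerase and other small nucleolar particles, at 234, 218, 247, 389 and 225 in Tert+/+ and 134, 140.2, 218, 217 and 181 in G3 mice (adjusted p = 0.598). The 2 groups overlapped there, and Tert+/+ replicate 4 was the highest mouse. No member of either list was called by limma, edgeR or DESeq2. An unadjusted p under 0.05 by limma was found for 2 higher and 2 lower repair genes and for 0 higher and 1 lower telomerase and shelterin genes. Over all tested genes the shares were 3.08% higher and 3.5% lower.

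Interferon-stimulated genes, which answer viral and self nucleic acids, were higher in 33 of 38 tested members, with a median of 0.24 beside -0.13 at 7 weeks. None passed over all genes with limma, edgeR or DESeq2. By limma 6 had an unadjusted p under 0.05, all of them higher, beside 3.08% of all tested genes. Ifit1, a translation inhibitor, was at 42.5, 44.3, 54.5, 21.4 and 64.5 in Tert+/+ and 82.4, 83.9, 81.02, 65.4 and 103 in G3 mice, without overlap (limma adjusted p = 0.373). Oasl2, a member of the oligoadenylate synthetase family, was at 35.2, 51.2, 57.4, 32.7 and 46.7 and 53.9, 80.8, 66.5, 61.3 and 86.9 (adjusted p = 0.382), with overlap. Lgals3bp, a secreted galectin ligand, was at 317 ± 65.7 and 429.8 ± 67.5 (adjusted p = 0.435). List scores overlapped, from -0.22 to 0.013 in Tert+/+ and from -0.074 to 0.30 in G3 kidneys.

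Markers of tubular injury and repair were above 0 in 18 of 21 tested members (median 0.28, 0.16 at 7 weeks). None was called by limma, edgeR or DESeq2. By limma 6 had an unadjusted p under 0.05, all of them higher, beside 3.08% of all tested genes. The kidney injury genes Havcr1 and Lcn2 were below the limit on counts. Sox9, a transcription factor of regenerating tubules, was at 31.1, 32.5, 41.9, 40.5 and 33.4 in Tert+/+ and 65.5, 53.2, 30.1, 66.4 and 72.7 in G3 mice, where 4 G3 mice were above and replicate 3 below every Tert+/+ mouse (limma adjusted p = 0.681). Cp, ceruloplasmin, was at 534 ± 114 and 687 ± 57.5 (adjusted p = 0.584). Some injury markers are also made by urothelium: all 9 of 9 tested urothelial markers were above 0, and their summed count was 53.9 to 262 in Tert+/+ and 176 to 485 in G3 kidneys. Its defining uroplakins were detected in both groups, and the part of this tissue in the injury list was not tested.

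The series title names epithelial-to-mesenchymal transition and fibrosis, and no member of the lists for either was called by limma, edgeR or DESeq2 in these old kidneys. Mesenchymal transition factors and markers had 8 of 17 above 0 (median -0.011, and -0.030 without Tert+/+ replicate 4), with no member at an unadjusted p under 0.05. Snai1, a repressor of epithelial genes, was at 5.18, 8.87, 10.7, 2.25 and 6.68 in Tert+/+ and 11.6, 20.5, 4.16, 8.17 and 10.1 in G3 mice, counts too low and spread too wide to tell the groups apart. Vim, vimentin, was at 274 ± 42.5 and 328 ± 67.3 (limma adjusted p = 0.853), and Acta2, smooth muscle actin, at 161 to 214 and 204 to 265 (adjusted p = 0.853). Extracellular matrix genes had 22 of 40 above 0 (median 0.093, and 0.010 without Tert+/+ replicate 4). At an unadjusted p under 0.05 by limma, 1 was higher and 2 were lower, beside 3.08% and 3.5% of all tested genes. In that list Timp3, an inhibitor of metalloproteinases, was at 15533, 13602, 14047, 15437 and 15320.0 in Tert+/+ and 11313, 11872, 12546, 12004 and 11544 in G3 mice, without overlap (adjusted p = 0.502), while Eln, elastin, was at 31.2 ± 3.90 and 43.9 ± 7.09 (adjusted p = 0.5996). Both had the same sign at 7 weeks, -0.29 for Timp3 and 0.64 for Eln.

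Lists of cell type markers are described next, and whether the mix of cells differed between the groups was not tested. Proximal tubule markers had 10 of 14 below 0 (median -0.11, and -0.051 without Tert+/+ replicate 4), intercalated cells 7 of 8 above 0 (median 0.19) and principal cells 8 of 9 above 0 (median 0.11). Slc27a2, a fatty acid transporter of the proximal tubule, was at 9689 ± 1008 in Tert+/+ and 7392 ± 487 in G3 kidneys without overlap (limma adjusted p = 0.534). Foxi1, the transcription factor of intercalated cells, was at 33.7 ± 13.9 and 61.9 ± 18.03 (adjusted p = 0.653), and Rhbg, their ammonia transporter, at 315 ± 75.8 and 407 ± 93.3 (adjusted p = 0.681). Limma and edgeR called no marker of any cell type list, and DESeq2 called the neutrophil gene S100a9. The part of such differences in the genes that passed was not tested.

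Markers of blood and immune cells differed more between mice. All 9 tested B and plasma cell genes were below 0 (median -1.30), but their sum ran from 3309.5 to 11473 in Tert+/+ and from 447 to 12230.0 in G3 kidneys. Igha, the constant region of immunoglobulin A, was at 1816, 1566, 1125, 2619 and 1941 in Tert+/+ and 1218, 869.8, 168, 741 and 796 in G3 mice, with G3 replicate 3 lowest (limma adjusted p = 0.730). Igkc, the kappa light chain, reached 7029, 1218, 183, 673 and 885 in G3 mice, where replicate 1 exceeded all Tert+/+ mice (1933, 3892, 1621, 2142 and 6070.1) and the other 4 lay below them. Of 4 tested neutrophil genes, 3 were above 0 and 1 below (median 0.90, lowest log2 fold change -0.080). Among them S100a8 and S100a9 were both higher on average in G3 mice. S100a9 was at 15.5, 11.8, 23.4, 21.4 and 10.02 in Tert+/+ and 64.4, 42.98, 21.8, 61.3 and 95.98 in G3 kidneys, with G3 replicate 3 inside the Tert+/+ range (adjusted p = 0.406 by limma and 0.0414 by DESeq2), and S100a8 at 19.4 ± 6.38 and 66.02 ± 35.01 (adjusted p = 0.586). The neutrophil genes Ly6g, Ngp and Camp were not in the table. All 7 of 7 erythroid genes were above 0 (median 0.49), among them Alas2, an enzyme of haem synthesis, at 132 ± 23.9 and 203 ± 66.5 (adjusted p = 0.460). C1qb, a macrophage complement gene, was at 122 to 182 and 175 to 264 (adjusted p = 0.373).

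**Figure D4:**
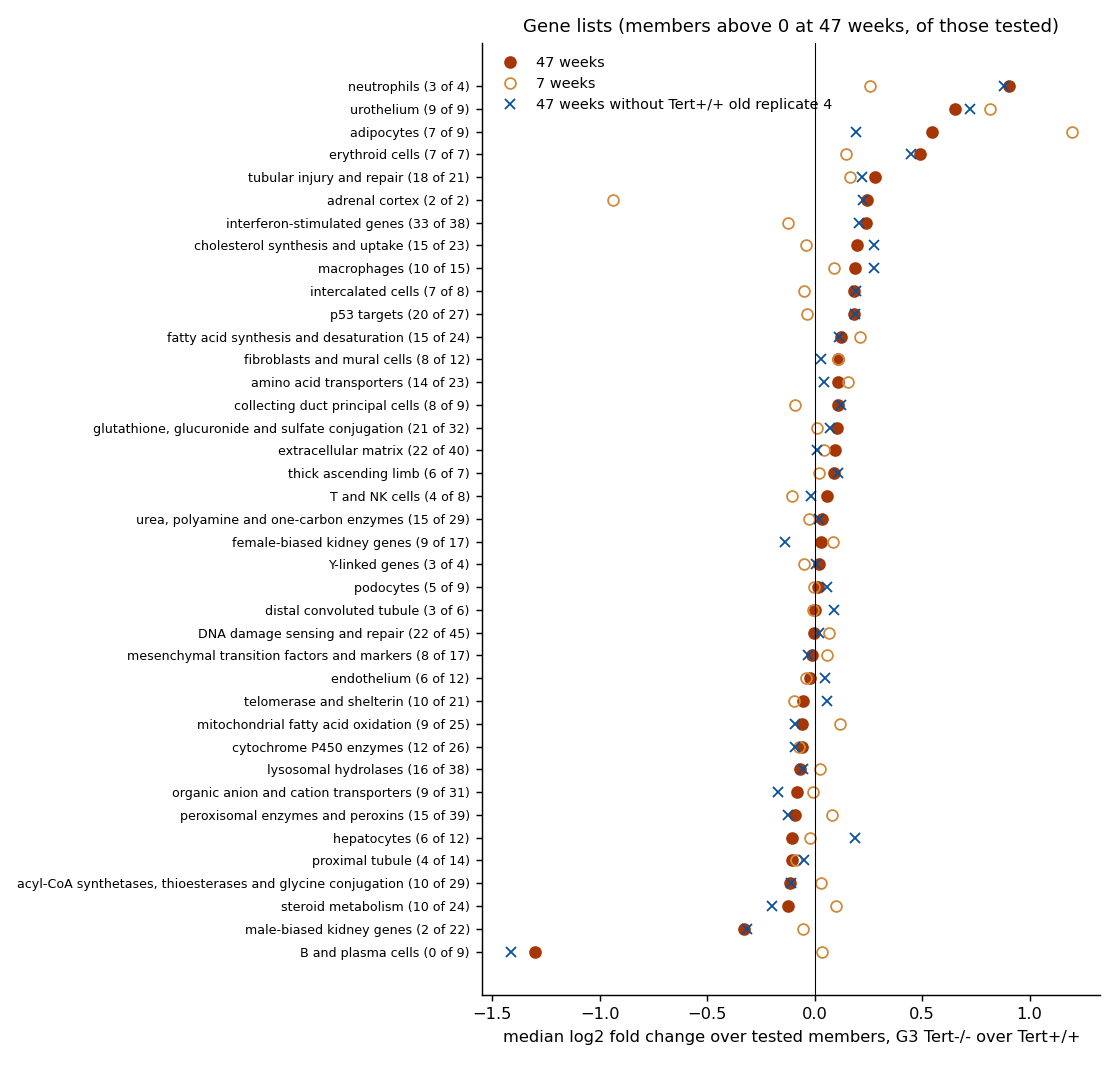
Median log2 fold change of G3 Tert-/- over Tert+/+ kidneys for the tested members of 39 gene lists, at 47 weeks (filled), at 7 weeks (open) and at 47 weeks without Tert+/+ old replicate 4 (cross), with the number of members above 0 at 47 weeks beside each name. Male-biased genes stand at -0.33 and B and plasma cell genes at -1.30, while adipocyte and hepatocyte medians shift to 0.19 and 0.19 when replicate 4 is left out.

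On the chromosome that carries Tert, genes with a genotype difference at both ages were frequent. The young and old comparisons share no mice, and each gene's spread was estimated over all 20. Of 569 tested genes on chromosome 13, 50 (8.79%) had an unadjusted p under 0.05 at 47 weeks, beside 6.58% of all genes, and 82 (14.4%) at 7 weeks, beside 10.7%. Within 10 Mb of Tert these shares were 12.1% and 21.2% of 99 genes. Over the genome 93 genes (0.636%) had an unadjusted p under 0.05 at both ages, 75 of them (0.513%) in the same direction. 14 of the 75 (18.7%) were on chromosome 13, which holds 3.91% of the placed genes. No gene of chromosome 13 passed the adjusted test at 47 weeks with limma or edgeR, and DESeq2 called 2, Rpp40 and Gm47469.

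Sdha (chr13:74322254-74350280, minus strand), a subunit of succinate dehydrogenase that lies within 2 Mb of Tert, was at 2715, 2539, 2557, 2584 and 2536 in Tert+/+ and 2222, 2240.1, 2112, 2046 and 2196 in G3 mice. The groups were separate and tight, and the log2 fold change was -0.26 (SE 0.084) at 47 weeks and -0.24 (SE 0.084) at 7 weeks (unadjusted p by limma 0.00566 and 0.0106). Gm47469, a long non-coding RNA also within 2 Mb, averaged 8.65 in Tert+/+ and 25.6 in G3 kidneys, with log2 fold changes of 1.48 and 0.79. 3 further genes were chosen after their values were seen. F2rl1, a protease-activated receptor of tubule epithelium, was at 44.6, 38.4, 43.8, 34.9 and 34.5 in Tert+/+ and 21.1, 17.4, 10.4, 26.6 and 18.2 in G3 mice, with no overlap and a log2 fold change of -1.08 (SE 0.27) beside -1.32 (SE 0.27) at 7 weeks. Zfp874a, a zinc finger protein, had log2 fold changes of -1.10 (SE 0.46) at 47 weeks and -1.73 (SE 0.46) at 7 weeks, and Tmem161b, a membrane protein, of 0.50 (SE 0.13) and 0.45 (SE 0.13). Whether DNA around the targeted gene differs between the 2 genotypes in these mice was not tested.

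**Figure D5:**
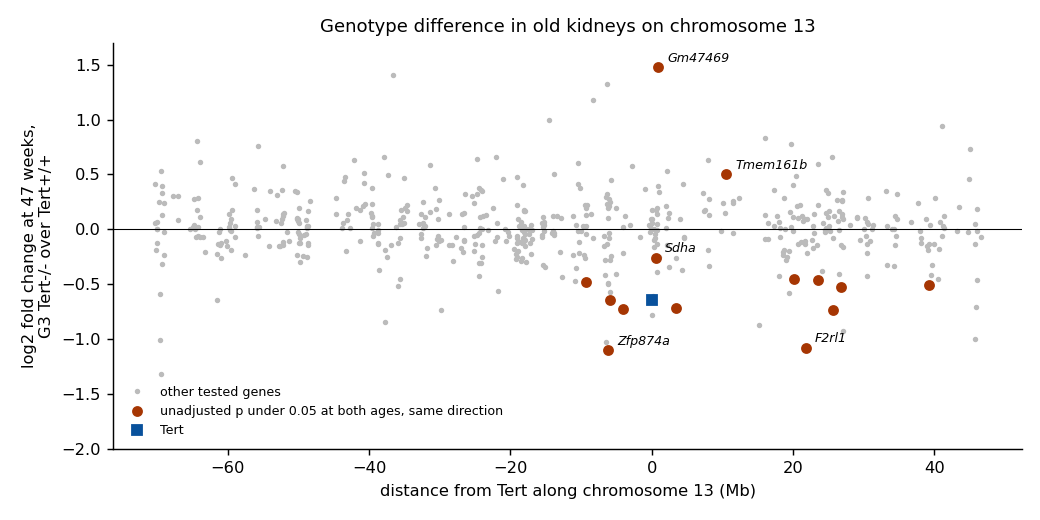
Log2 fold change of old G3 Tert-/- over old Tert+/+ kidneys for the 569 tested genes of chromosome 13, against their distance from Tert in Mb. Large points are the 14 genes with an unadjusted p under 0.05 in the same direction at both ages, 12 below and 2 above 0, and the square is Tert.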

How the data were processed

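Kidney RNA of 20 male mice, 5 in each of 4 groups, was read from the 3′ end of polyadenylated transcripts on the sense strand (QuantSeq, 300 ng of RNA, quality score 6.6 on average, range 5.0 to 7.5), per the labels' protocols. The authors deposited a signal, taken here as read counts scaled by a single factor for each library, because all values in a library are whole multiples of 1 step (relative tolerance 1e-06). The submitters' processing notes list HTSeq 0.6.1, FastQC 0.11.7, SAMtools 0.1.19, DESeq2, Bowtie 1.0.0 and TopHat2 2.0.10, with the build GRCm38 and no roles. Groups come from the labelled genotype and age. Replicate numbers follow the listing order and pair no mice.

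Genes with 10 or more in at least 5 of 20 libraries were fitted as log2(normalized count + 1) with limma 3.58.1 in R 4.3.3, with 4 group means, an intensity trend and Benjamini-Hochberg adjustment over all 14630 genes. Unless another tool is named, each p of a gene is from limma and is two-sided. Recovered whole reads went into edgeR 4.0.16, DESeq2 1.42.0 and a rescaling by edgeR's TMM as alternatives. For G3 Tert-/- old replicate 5 the step lies near 1, so recovery rests on this library's own values and is less certain. The fit was tested on simulated data. The genes examined and the 39 lists (839 entries, 808 in the table, 747 tested) were chosen with earlier results of these data known, so no list is independent evidence. Named genes are all that passed, the next 12 by p averaging 20 or more in 1 of the groups and not known by a Gm, Rik or identifier name only, up to 3 per list by p, those within 2 Mb of Tert, the 10 most abundant and those called for the interaction or by both count tools. The rule names 163 genes, some of which are not reported here. Values are given for 71 genes, of which 3 lie outside the rule and are marked. Coordinates are from GENCODE M21 on GRCm38, in which 14550 tested genes (99.45%) were placed. Promoters and their coordinates are from RefSeq on GRCm38.p6. Reads of close copies can be split in counting, so Lipo3, Cyp4a12a, Gm6300, Gm47283 and the immunoglobulin genes are uncertain.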

Additional observations from a re-analysis of the deposited data

Results flagged for a closer look

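In groups of 5 mice, a mouse whose distance to its nearest neighbour exceeds 0.71 of the group's range was singled out. This was examined in 142 groups (71 genes in 2 groups), and 9 values met it, where chance gives about 1 in 20. 3 of the 9 lay in Tert+/+ old replicate 4, the library that stands apart. They were Lgals3bp at 430.2 (262.9 to 306.4 in the other 4 Tert+/+ mice), Rhbg at 447.1 (263.9 to 309.3) and Nhp2 at 388.5 (217.7 to 247.3).

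Tert+/+ old replicate 3 was low for both Acsm3, at 686.4 against 931.6 to 964.0, and Scd2, at 78.87 against 108.8 to 118.0. For Acsm3 this value lies on the side of the G3 mice and for Scd2 on the far side from them. 3 other Tert+/+ values were Gusb at 145.8 in replicate 2 (119.2 to 126.6 in the others), Abcc4 at 223.7 in replicate 5 (265.8 to 282.8) and Sdha at 2715 in replicate 1 (2536 to 2584). Each is farther from the G3 mice than the rest of its group. In the G3 group, Igkc stood at 7029 in replicate 1 against 182.8 to 1218 in the others.

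The genotype effect on Slco1a1 differed between the ages by -2.09 on the log2 scale (limma adjusted p = 0.0199), lower in 5 of 5 old G3 mice than in any old Tert+/+ mouse, while the young groups overlapped. Its adjusted p ranged from 0.00191 to 0.0721 over the refits that left out 1 old mouse.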

How the results depend on the processing

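No called gene changed direction under any alternative run. Over 71 genes and 20 alternatives, 1305 of 1413 values kept direction and side of the threshold, 76 lost a call and 32 gained one. A call could be lost only by the 14 genes that had one, and gained only by the others. The 14 genes called at 47 weeks (14.3% of them higher) became 50 with DESeq2, 18 higher (36.0%) and 32 lower, and 6 with only the old libraries, 2 higher (33.3%) and 4 lower. edgeR called 15, with 4 higher (26.7%), and robust variance moderation 12, with 1 higher. Leaving out 1 old mouse gave 2 to 19 calls, 0 to 3 higher and 2 to 16 lower. Of the 14, 4, 11, 10, 11 and 7 were still called without Tert+/+ replicates 1 to 5, and 8, 2, 12, 2 and 11 without G3 replicates 1 to 5. The interaction of genotype and age gave 8 genes with DESeq2, 0 with robust moderation, 0 without the 2 libraries that stand apart and 0 to 2 when 1 old mouse was left out. The Tert level at 47 weeks differed by -6.02 to -3.61 normalized counts when 1 mouse was left out, with an exact permutation p of 0.0317 without Tert+/+ replicate 1 or without Tert+/+ replicate 2. Fits without a mouse or without the young libraries rest on fewer samples, and for DESeq2, edgeR and robust moderation the cause was not tested. Of 117 list medians, 112 moved by less than the spread between Tert+/+ mice, some of them across 0. Without Tert+/+ replicate 4 the other 5 became -0.14 (female-biased), 0.056 (telomerase and shelterin), 0.050 (endothelium), 0.019 (urea, polyamine and one-carbon enzymes) and 0.071 (conjugation). No paired analysis was possible because the replicate numbers follow the listing order and the labels give no shared litter or batch. A value of 0 allows 2.92 to 3.38 normalized counts, which is a counting limit for 1 library and not the smallest group difference that the tests can find.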

Other observations

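In the lists of other cell types and pathways below, limma, edgeR and DESeq2 called no member at 47 weeks. Medians in G3 over Tert+/+ kidneys are log2 fold changes, and the value after "or" is without Tert+/+ replicate 4. Urea, polyamine and one-carbon enzymes had 15 of 29 members with a log2 fold change above 0 (median 0.035, or 0.019), podocytes 5 of 9 (median 0.016, or 0.057), endothelium 6 of 12 (median -0.020, or 0.050), distal convoluted tubule 3 of 6 (median 0.0018, or 0.088), thick ascending limb 6 of 7 (median 0.092, or 0.11), fibroblasts and mural cells 8 of 12 (median 0.11, or 0.032), macrophages 10 of 15 (median 0.19, or 0.28) and T and NK cells 4 of 8 (median 0.055, or -0.016). The summed count of adipocyte markers was 559.7 to 1524 in Tert+/+ and 678 to 5057 in G3 kidneys, and 7 of 9 were above 0, with a median of 0.55, or 0.19 without Tert+/+ replicate 4. Hepatocyte markers had 6 of 12 above 0 (median -0.10, or 0.19 without that mouse), and both tested adrenal cortex markers were above 0 (median 0.25). The basal urothelial keratin Krt5 was at 0, 5.91, 0.974, 3.38 and 6.68 in Tert+/+ and 13.7, 9.21, 12.5, 3.06 and 25.3 in G3 mice (limma adjusted p = 0.705).

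Transcripts of the mitochondrial genome were counted at both ages. At 47 weeks 0 of 32 tested genes had an unadjusted p under 0.05 for genotype by limma, beside 6.58% of all tested genes, and at 7 weeks 19 of 32 did, beside 10.7%. The 32 genes come from 1 genome and are not independent, and the difference between the ages was not tested for them as a group. By chromosome, the share of tested genes with an unadjusted p under 0.05 at 47 weeks was highest on chromosome 19 among those with over 100 tested genes, at 10.3% of 474 genes, which carries the called genes Lipo3 and Scd2. Across all tested genes, the log2 fold changes at 47 and at 7 weeks had a Pearson r of 0.241, a description across genes that share libraries and depth.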
